A study of Mus musculus with 24 samples.

Results

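BLM-treated mice and saline controls were compared for RNA levels in the distal lung, across all genes on the chip. The comparison used 12 of the 24 arrays of the series, those titled as saline or bleomycin with vehicle, with 1 array per mouse and 6 mice in each group. All 12 mice were female C57BL/6 mice, with an age of 12.5 weeks in the labels, and all received vehicle p.o. daily, Tween80 at 2.5% w/v. BLM-treated mice had bleomycin injected s.c. at 50 IE per dose, 3 times per week for 2 weeks, and saline controls had physiological saline injected s.c. instead. The other 12 mice of the series received BLM together with EXT5 or EXT9 and were not compared here. Injection under the skin reaches the lung through the blood, so the model is a systemic one. The tissue was a mixture of cell types, in which fewer cells of a type and less RNA per cell cannot be told apart.

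Bleomycin is a glycopeptide that binds iron and breaks DNA strands, and the lung holds little of the hydrolase that inactivates it. DNA breaks stabilise the transcription factor p53, which switches on Cdkn1a and other genes that halt the cell cycle or start repair. In the injured lung, alveolar type 2 cells divide and pass through a transitional state to alveolar type 1 cells, while fibroblasts lay down collagen and basement membranes are rebuilt. The comparison asked which of these programmes differed at the RNA level after 2 weeks of BLM.

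The chip held 45281 probes, and values are log2 of the signal that the authors had quantile normalized. The deposited values fell into 2 sets, each with its own common distribution, and these were taken as the 2 array runs that the design text describes. Each run held 3 saline controls and 3 BLM-treated mice (saline replicates 1, 3 and 5 with BLM replicates 2, 3 and 5 in the first). The run was fitted as a block, since a run difference was called at 33.9% of the tested probes (limma, adjusted p under 0.05). In 203 rows the run means differed by over 1.5 on the log2 scale beyond the median run difference of 0.10, and these rows were omitted. Of the remaining probes, the 50% with the higher mean were tested (22539 probes with a mean of at least 6.73, for 11990 named genes). Differences below are BLM minus saline on the log2 scale with the standard error, and a probe was called at an adjusted p under 0.05. Of 11 genes that mark lung tissue, among them the surfactant genes Sftpc and Sftpb, the club cell gene Scgb1a1 and the type 1 cell gene Ager, 11 were tested. Of 10 genes that mark other organs, 9 were on the chip and 3 passed the filter. Saline replicate 6 had the largest residuals, with a root mean square of 0.22. Saline replicates 2 and 4, of the same group and run, had 0.19 and 0.16, and the remaining mice 0.09 to 0.14. Results that rest on saline replicate 6 are given with and without it.

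Genes with higher signals in BLM-treated mice included 6 targets of p53, led by Cdkn1a, 8 genes of mitosis, 5 histone H2A genes, and the protease and inhibitor genes Timp1, Mmp2 and Mmp14. Of the tested probes, 53 were called higher (0.235%) and 31 lower (0.138%). The higher probes represent 42 named genes and 3 probes without a gene name here, and the lower probes 13 named genes and 17 probes without a name. The sizes were small: the median difference of the higher probes was 0.44, and only 3 probes, all of Cdkn1a, differed by over 1. The groups did not overlap at 42 of the 53 higher probes and at 2 of the 31 lower probes, against 0.55% of all tested probes. Within each run the 3 BLM-treated mice lay on the called side of the 3 saline controls at all 84 called probes, as at 2.09% of the tested probes in one direction or the other. The difference itself was compared between the runs: 0 probes were called by limma, and 791 had an unadjusted p under 0.05.

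**Figure D1:**
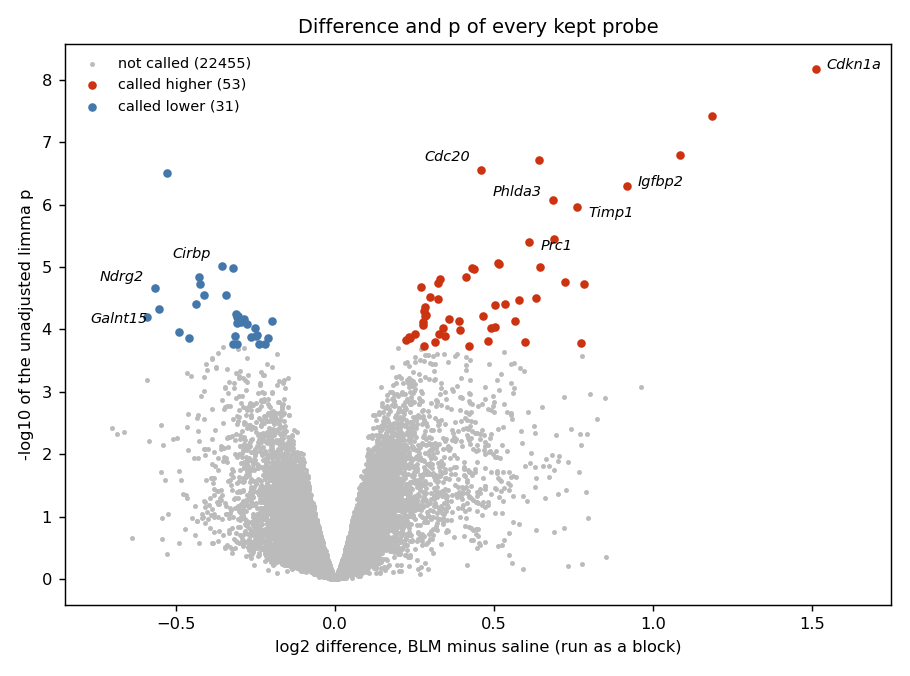
Each point is 1 of the 22539 tested probes. The x axis gives the log2 difference between BLM-treated mice and saline controls, the y axis −log10 of the unadjusted p, red marks the 53 probes called higher and blue the 31 called lower. The 3 Cdkn1a probes lie farthest to the right, at 1.09 to 1.51, and no probe called lower goes beyond −0.59.

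The calls depended on single mice. With each mouse left out in turn, the number of probes called higher ranged from 17 (without saline replicate 5) to 315 (without saline replicate 6, 1.4% of the tested probes), and the number called lower from 4 to 293 (1.3%) without the same mice. Of the 84 called probes, 17 were called in all 12 of these fits, 14 higher and 3 lower. The named genes among them were Cdkn1a, Igfbp2, Timp1, Phlda3, Ndnf, Prc1, Ccng1, Cdc20 and Pbk, which were higher, and Cirbp and Jph2, which were lower. Among the higher genes, Itgb6, Spock2, Mmp2, Mmp14, H2ac12, 1 of the H2ac7 probes, Zmat3, Gtse1, Gas6, Plau, Plk1, Aurka, Kntc1, Mcm5, Top2a, Nusap1, Bicd2, Slc39a13 and Ubqln4 were called in at most 3 of the 12. The same held for Aif1, Pin4, Eif3k, Atp6v1c2 and Ndrg1 among the lower genes. The sign of the difference was the same in all 12 fits for all 84 probes.

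Cdkn1a, the gene of the cell cycle inhibitor p21, showed the largest difference of all tested probes. Its brightest probe had log2 signals of 8.997 to 9.63 in saline controls (median 9.31) and 10.54 to 11.07 in BLM-treated mice (median 10.82). The lowest BLM-treated mouse thus lay above the highest saline control. The difference was 1.51 ± 0.11, a 2.85-fold higher signal (adjusted p = 0.00015), and the other Cdkn1a probes differed by 1.19 ± 0.10 and 1.09 ± 0.10 (adjusted p = 0.00043 and 0.0011). Averaged over the 3 probes, the signal was 8.31 ± 0.20 in saline controls and 9.57 ± 0.16 in BLM-treated mice (mean ± SD, n = 6). The difference of 1.26 on the log2 scale, or 2.40-fold, had p = 0.005 in an exact two-sided permutation test within the runs, which is the smallest p that its 400 arrangements allow. Within the first run it was 1.08 and within the second 1.45, where 3 against 3 mice cannot give a p below 0.1.

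Of the 32 genes in the list of p53 targets, 24 were tested. Apart from Cdkn1a, 17 of 23 had a positive difference and 5 were called higher, with a median of 0.14. Over all named genes, with 1 probe per gene, 0.334% were called higher and 0.0834% lower, 49.98% had a positive difference and the median was 0.00. Phlda3, a p53-induced inhibitor of Akt, had signals of 8.64 to 8.87 in saline controls (median 8.79) and 9.20 to 9.64 in BLM-treated mice (median 9.51), so that the groups did not overlap. The difference was 0.68 ± 0.07 (adjusted p = 0.0023), and its other probe differed by 0.51 ± 0.07 (adjusted p = 0.013). Ccng1, the gene of cyclin G1, had signals of 9.83 to 10.31 in saline controls (median 10.01) and 10.52 to 11.18 in BLM-treated mice (median 10.70), a difference of 0.78 ± 0.12 (adjusted p = 0.017). This Ccng1 probe was called in 9 of the 12 fits with 1 mouse left out. A dimmer one, at 0.51 ± 0.07 (adjusted p = 0.013), was called in all 12. Of the 3 tested Ccng1 probes 2 were called. Zfp365, a p53 target that acts in genome stability, differed by 0.72 ± 0.11 and 0.63 ± 0.10 at 2 of its 3 tested probes, while the remaining one had −0.03. The RNA-binding gene Zmat3 and the G2 phase gene Gtse1 differed by 0.42 ± 0.08 and 0.39 ± 0.07 (adjusted p = 0.049 and 0.033), and the other Gtse1 probe had −0.04. The list was not uniform: Mdm2, whose product degrades p53, differed by 0.12, and the repair genes Rrm2b, Ddb2 and Xpc had values of −0.22, −0.12 and −0.07, none of them called. The list's score, the mean of its genes relative to their means over the 12 mice, ran from −0.22 to −0.02 in saline controls and from 0.01 to 0.26 in BLM-treated mice. Without Cdkn1a it ran from −0.19 to 0.00 and from −0.01 to 0.23, so that the groups overlapped across the runs. The separation of the full score across the runs thus rested on Cdkn1a. Within each run the groups stayed apart without it. Saline controls lay up to 0.00 and BLM-treated mice from 0.09 in the first run, and up to −0.15 and from −0.01 in the second. Among 8 CDK inhibitor genes, Cdkn1a and the phosphatase gene Cdkn3 (0.30 ± 0.05) were called higher, whereas Cdkn2c, the gene of p18, had a difference of −0.46 ± 0.15 (adjusted p = 0.22).

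**Figure D2:**
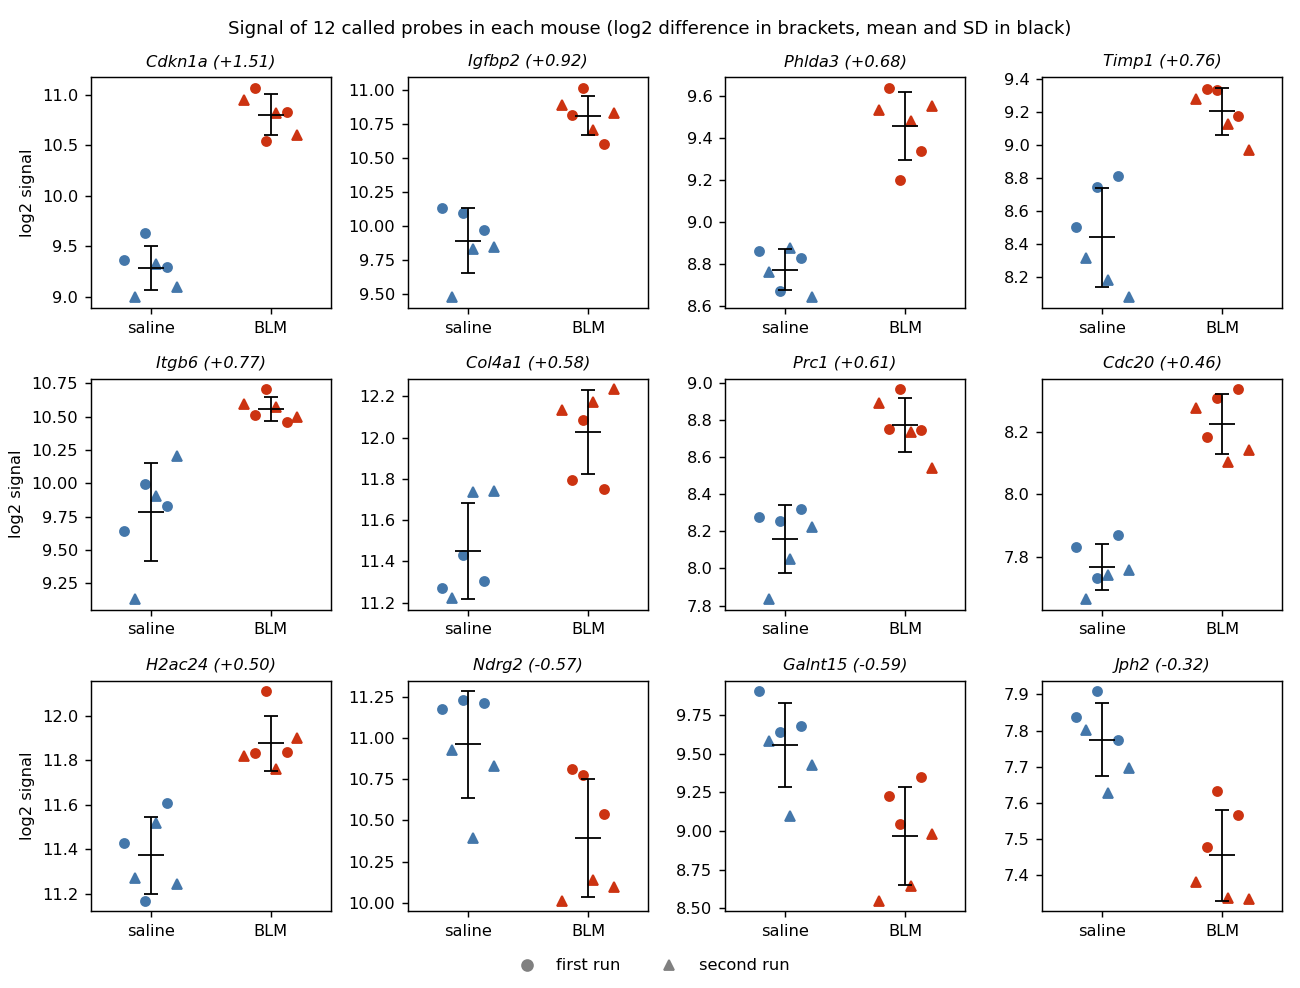
Log2 signal of 12 called probes in each of the 12 mice (y axis), with saline controls in blue and BLM-treated mice in red, circles for the first run and triangles for the second, and the mean with SD in black. At Cdkn1a, Igfbp2, Phlda3, Timp1, Itgb6, Col4a1, Prc1, Cdc20 and H2ac24 the groups do not overlap, whereas at Ndrg2, Galnt15 and Jph2 they overlap between runs and separate within each run.

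No gene of DNA break signalling and repair was called. Of 19 tested members, 9 had a positive difference and 0 were called by limma, 3 had an unadjusted p under 0.05, and the median was 0.00. H2ax, whose product is phosphorylated at DNA breaks, had 0.13 ± 0.05 (adjusted p = 0.30), and Mre11a, which senses breaks, had 0.10 ± 0.04 (adjusted p = 0.39).

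Genes of mitosis and cytokinesis were higher in BLM-treated mice. Of 44 genes in the list, 28 were tested, all 28 had a positive difference, and 8 were called higher (12 without saline replicate 6), with a median of 0.21. Over all named genes 0.334% were called higher, and 1.79% without saline replicate 6. The score ran from −0.24 to −0.02 in saline controls and from 0.00 to 0.20 in BLM-treated mice. Prc1, which bundles microtubules of the central spindle, had signals of 7.83 to 8.32 in saline controls (median 8.24) and 8.54 to 8.96 in BLM-treated mice (median 8.75). The difference was 0.61 ± 0.08 (adjusted p = 0.0083) (first run 0.54, second run 0.69). Cdc20, the activator of the anaphase-promoting complex, had signals of 7.66 to 7.87 in saline controls (median 7.75) and 8.10 to 8.34 in BLM-treated mice (median 8.23). Its difference of 0.46 ± 0.04 was among the most precise (adjusted p = 0.0012), and 2 of its 4 tested probes were called. The mitotic kinase gene Pbk differed by 0.44 ± 0.06 (adjusted p = 0.013), Plk1 by 0.34 ± 0.06, Aurka by 0.28 ± 0.05, the topoisomerase gene Top2a by 0.29 ± 0.05, the spindle gene Nusap1 by 0.28 ± 0.05 and the kinetochore gene Kntc1 by 0.23 ± 0.04. Of these, Prc1, Cdc20 and Pbk were called in all 12 fits with 1 mouse left out, and Plk1, Aurka and Kntc1 in 1 of the 12.

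Among genes of DNA replication and nucleotide synthesis, 27 of 31 tested members had a positive difference and 3 were called higher, with a median of 0.09. Without saline replicate 6, 6 were called. E2f1, a transcription factor for S phase entry, had signals of 7.73 to 8.23 in saline controls (median 7.95) and 8.24 to 8.55 in BLM-treated mice (median 8.35), a difference of 0.43 ± 0.06 (adjusted p = 0.013). The helicase subunit gene Mcm5 differed by 0.31 ± 0.06 and Rrm1, the large subunit of ribonucleotide reductase, by 0.27 ± 0.04. Mcm7 and the proliferation marker Pcna had values of 0.00 and 0.08.

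Some histone H2A genes were higher, and no probe of another histone family was called. Replication-dependent histone genes are transcribed in S phase, and each nucleosome holds H2A, H2B, H3 and H4 in equal amounts. The family was described after its values had been seen. Of 19 tested H2A probes for 12 genes, 16 had a positive difference and 6 probes of 5 genes were called higher, with a median of 0.41. Without saline replicate 6, 11 of the probes were called. Over all tested probes 0.235% were called higher with all 12 mice, and 1.4% without saline replicate 6. Among H2B probes 12 of 13 had a positive difference and 0 were called, with a median of 0.15, while the medians of 9 H3 and 14 H4 probes were 0.03 and −0.02, with 0 called. H2ac24 had signals of 11.17 to 11.61 in saline controls (median 11.35) and 11.76 to 12.11 in BLM-treated mice (median 11.83), so that the groups did not overlap. Its difference was 0.50 ± 0.08 (adjusted p = 0.025) (first run 0.53, second run 0.48). H2ac7 differed by 0.48 ± 0.09 and 0.47 ± 0.08 at its probes, H2ac12 by 0.50 ± 0.09, H2ac11 by 0.41 ± 0.06 and H2ac20 by 0.32 ± 0.05. The other H2ac20 probe had 0.03 ± 0.05 (adjusted p = 0.86). H2ac20 lies on chromosome 3. The other tested H2A genes there had −0.06 to 0.16 (H2ac18), −0.03 (H2ac19) and 0.15 (H2ac21), and none of them was called. The largest value of the family, 0.55 ± 0.11 at H2ac15, was not called (adjusted p = 0.068), but was without that mouse (adjusted p = 0.033). The H2A genes have nearly identical coding sequences, so a probe may read several of them, and the genes cannot be told apart with certainty.

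**Figure D3:**
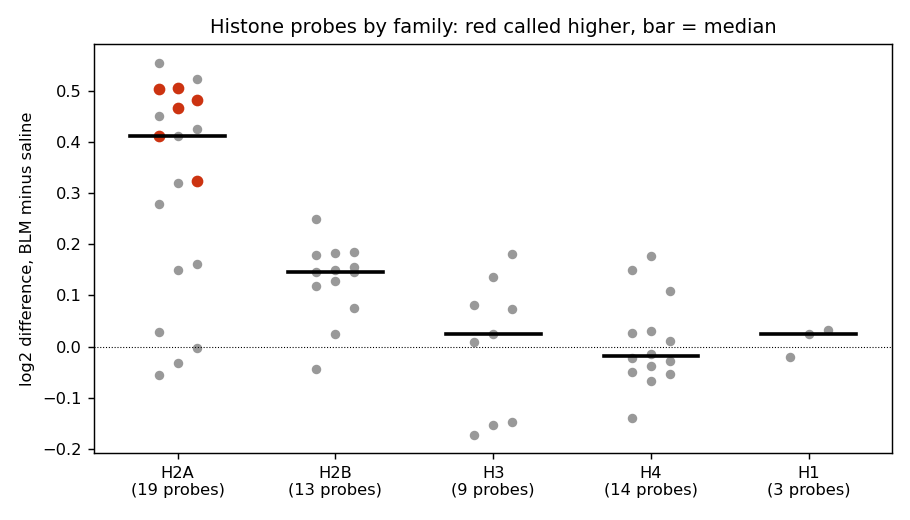
Each point is 1 tested histone probe, grouped by family on the x axis, with its log2 difference between BLM-treated mice and saline controls on the y axis. The 6 called probes, in red, are all H2A, and the family medians, drawn as bars, are 0.41 for H2A, 0.15 for H2B, 0.03 for H3, −0.02 for H4 and 0.03 for H1.

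As both mitotic and H2A genes were called, their promoters were searched for 2 motifs that are frequent in cell cycle genes. These were the CCAAT box (CCAAT, bound by NF-Y) and the cell cycle homology region (TTTGAA), each searched on both strands in the 250 bases before the start of transcription. The promoters are RefSeq sequences of build GRCm38.p6, and 37 of the 42 higher genes matched an entry. The sequences of 2 mitotic and 2 H2A genes are shown because they carry both motifs, which are in capitals, with ATTGG and TTCAAA as the same motifs on the other strand.
Cdc20, chr4:118437344-118437593, minus strand: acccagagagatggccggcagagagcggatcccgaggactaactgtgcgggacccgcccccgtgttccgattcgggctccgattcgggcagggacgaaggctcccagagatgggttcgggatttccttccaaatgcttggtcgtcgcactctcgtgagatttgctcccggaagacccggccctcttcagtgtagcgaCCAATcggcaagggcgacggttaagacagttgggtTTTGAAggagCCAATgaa
Top2a, chr11:99024190-99024439, minus strand: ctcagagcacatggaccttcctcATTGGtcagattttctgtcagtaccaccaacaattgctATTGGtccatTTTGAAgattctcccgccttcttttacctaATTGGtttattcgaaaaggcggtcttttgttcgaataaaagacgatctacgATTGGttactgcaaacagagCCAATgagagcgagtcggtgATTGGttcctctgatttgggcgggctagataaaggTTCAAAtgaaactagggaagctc
H2ac7, chr13:23574131-23574380, plus strand: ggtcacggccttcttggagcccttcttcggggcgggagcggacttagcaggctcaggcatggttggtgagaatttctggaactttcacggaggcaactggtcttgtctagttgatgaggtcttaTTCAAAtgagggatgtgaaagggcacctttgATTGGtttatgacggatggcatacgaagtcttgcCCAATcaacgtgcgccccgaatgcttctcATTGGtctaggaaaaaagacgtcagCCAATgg
H2ac24, chr13:21833476-21833725, minus strand: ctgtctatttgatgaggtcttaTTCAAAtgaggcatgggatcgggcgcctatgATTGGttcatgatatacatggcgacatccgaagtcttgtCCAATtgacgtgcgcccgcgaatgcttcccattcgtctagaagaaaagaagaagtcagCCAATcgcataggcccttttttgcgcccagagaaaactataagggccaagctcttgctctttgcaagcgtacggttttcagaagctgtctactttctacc
A CCAAT box lay in 12 of the 12 tested H2A genes and in 19 of the 24 tested mitotic genes with an entry (79.2%), against 35.6% of the 9661 tested genes with an entry and 34.5% of all 27025 promoters. The H2A and mitotic shares of either motif count all such genes, called or not, so they do not depend on the calls. Among all genes called higher the CCAAT box lay in 22 of 37 (59.5%), and among those called lower in 5 of 12. The 37 include 7 mitotic genes, 6 of them with the box, and 5 H2A genes, all with it. TTTGAA lay in 10 of the 24 mitotic genes (41.7%) and in 6 of the 12 H2A genes, against 10.95% of tested genes and 16.3% of all promoters. Among all genes called higher TTTGAA lay in 9 of 37 (24.3%), and among those called lower in 1 of 12. The 9 include 3 mitotic and 3 H2A genes. In Cdc20 a CCAAT box lies 53 bases before the start and the TTTGAA motif 18 bases before it. The H2A promoters resemble each other, so they are not independent examples, and a match does not show that a factor binds. Promoters of H2B, H3 and H4 genes were not counted as sets, so whether the motifs are particular to H2A genes was not tested.

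Matrix genes differed at a few points of synthesis and turnover. Timp1, an inhibitor of metalloproteinases, had signals of 8.08 to 8.81 in saline controls (median 8.41) and 8.97 to 9.34 in BLM-treated mice (median 9.22). Its difference was 0.76 ± 0.08 (adjusted p = 0.0027) (first run 0.59, second run 0.93), and its other probe was called as well. The gelatinase gene Mmp2 differed by 0.56 ± 0.10 (adjusted p = 0.033) and Mmp14, whose product activates pro-MMP2, by 0.25 ± 0.05 (adjusted p = 0.042), with −0.05 at its other probe. These 3 were the only called genes among 16 tested metalloproteinase and TIMP genes, 10 of which had a positive difference, with a median of 0.03. The macrophage elastase gene Mmp12 and the collagenase gene Mmp13 had values of −0.22 and −0.29 and were not called.

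Among fibrillar collagen and interstitial matrix genes, 25 of 26 tested members had a positive difference, with a median of 0.18, but 1 was called. This was Serpinh1, the collagen chaperone Hsp47, with signals of 12.18 to 12.33 in saline controls (median 12.26) and 12.43 to 12.72 in BLM-treated mice (median 12.58). The difference was 0.33 ± 0.05 (adjusted p = 0.017), and its other probe had −0.05. Col1a1 had 0.30 ± 0.11 (adjusted p = 0.27), Tnc, the gene of tenascin C, had 0.33 ± 0.09 (adjusted p = 0.15), and Sparc, a collagen-binding glycoprotein gene, had 0.51 ± 0.11 (adjusted p = 0.088). Without saline replicate 6 Sparc was called (0.60, adjusted p = 0.0096), and the Col1a1 signal of that mouse was the lowest of the group at 9.002, against 9.39 to 9.58 in the other saline controls.

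Among basement membrane genes, the type IV collagen chain Col4a1 was called. Col4a1 had signals of 11.22 to 11.74 in saline controls (median 11.37) and 11.75 to 12.23 in BLM-treated mice (median 12.11), so that the groups nearly touched. The difference was 0.58 ± 0.09 (adjusted p = 0.023), with 0.54 and 0.61 in the first and second run. Its partner chain Col4a2 had 0.56 ± 0.13 (adjusted p = 0.10) and the proteoglycan gene Agrn 0.41 ± 0.08 (adjusted p = 0.069). The largest difference of the list was that of the laminin chain gene Lamb3, chosen for that value, at 0.62 ± 0.20 (adjusted p = 0.23). Of 19 tested members 17 had a positive difference and 1 was called, with a median of 0.12. Without saline replicate 6, 7 were called higher, against 1.79% of all named genes in that fit, and the median was 0.11.

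Igfbp2, which binds insulin-like growth factors, had the largest called difference after Cdkn1a. One probe had signals of 9.48 to 10.13 in saline controls (median 9.91) and 10.60 to 11.02 in BLM-treated mice (median 10.83), without overlap. Its difference was 0.92 ± 0.09 (adjusted p = 0.0016) (first run 0.75, second run 1.09). The other probe had 0.83 ± 0.22 (adjusted p = 0.15) and overlapped, because saline replicate 6 was high at 8.68. Igfbp3, another binding protein, had a difference of −0.70 ± 0.20 (adjusted p = 0.17). Of the 11 tested genes of this family 6 had a positive difference, and Igfbp2 was the only one called.

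Further called genes act at the cell surface or in the extracellular space. Itgb6, the integrin chain that with alpha v activates latent TGF-beta on epithelial cells, had signals of 9.13 to 10.21 in saline controls (median 9.87) and 10.46 to 10.71 in BLM-treated mice (median 10.54). The 6 BLM-treated mice lay close together and above all saline controls. The difference was 0.77 ± 0.14 (adjusted p = 0.047), and it was called in 2 of the 12 fits with 1 mouse left out. Of the 3 tested Itgb6 probes 1 was called, with differences from 0.56 to 0.77. Tgfb1 itself had 0.29 ± 0.10 (adjusted p = 0.26, or 0.041 without saline replicate 6), and of 19 tested genes of the TGF-beta pathway 11 had a positive difference, with a median of 0.03 and Itgb6 as the only call. Ndnf, a secreted fibronectin-domain protein gene, had signals of 7.20 to 7.48 in saline controls (median 7.45) and 7.82 to 8.29 in BLM-treated mice (median 7.98), a difference of 0.65 ± 0.09 (adjusted p = 0.013). Gas6, the ligand of the TAM receptor tyrosine kinases, differed by 0.36 ± 0.06 and the plasminogen activator gene Plau by 0.33 ± 0.06 (adjusted p = 0.032 and 0.042). The syndecan gene Sdc3 differed by 0.49 ± 0.09, the ephrin receptor gene Epha2 by 0.28 ± 0.05 and Slc39a13, a zinc transporter, by 0.34 ± 0.06 at 1 of its 3 tested probes, which differed in sign. The remaining higher genes were Ppm1f (0.54), Bicd2 (0.39, with 0.05 at its other tested probe), Pprc1 (0.28), Gpr146 (0.28) and Ubqln4 (0.22).

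The genes that were lower in BLM-treated mice were not concentrated in 1 of the lists. Ndrg2, a stress-responsive gene of the N-myc downstream-regulated family, had signals of 10.39 to 11.23 in saline controls (median 11.05) and 10.01 to 10.81 in BLM-treated mice (median 10.34). The groups overlapped across the runs but not within them, with differences of −0.50 and −0.63 in the first and second run. The difference was −0.57 ± 0.08 (adjusted p = 0.018), and the related Ndrg1 had −0.25 ± 0.04 (adjusted p = 0.042). Galnt15, an enzyme gene of mucin-type O-glycosylation, had −0.59 ± 0.10 and −0.55 ± 0.09 at 2 of its 4 tested probes (adjusted p = 0.031 and 0.028). Its other tested probes were not called, and the weakest had −0.07. Cirbp, a cold-inducible RNA-binding protein gene, had signals of 8.90 to 9.23 in saline controls (median 9.08) and 8.51 to 8.97 in BLM-treated mice (median 8.72), a difference of −0.36 ± 0.05 (adjusted p = 0.013). Jph2, which joins the plasma membrane to the sarcoplasmic reticulum in muscle, had −0.32 ± 0.04 (adjusted p = 0.013), and its other tested probe had 0.06. The proton pump subunit gene Atp6v1c2 had −0.49, the ribosomal protein gene Rps3 −0.43, the translation factor gene Eif3k −0.32, the BMP modulator gene Twsg1 −0.31, the isomerase gene Pin4 −0.30, Gprasp2 −0.28 and Aif1, a gene of macrophages, −0.21. Gm4832, a predicted gene, had −0.43. At Eif3k the other probe had 0.04, and at Rps3 −0.12, while of 27 tested ribosomal protein genes 0 were called by limma with 1 probe per gene and the median was −0.03.

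Several probes of 1 gene were tested for 28 of the 55 called genes. At 4 of them all probes were called, and at 7 the probes differed in sign.

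**Figure D4:**
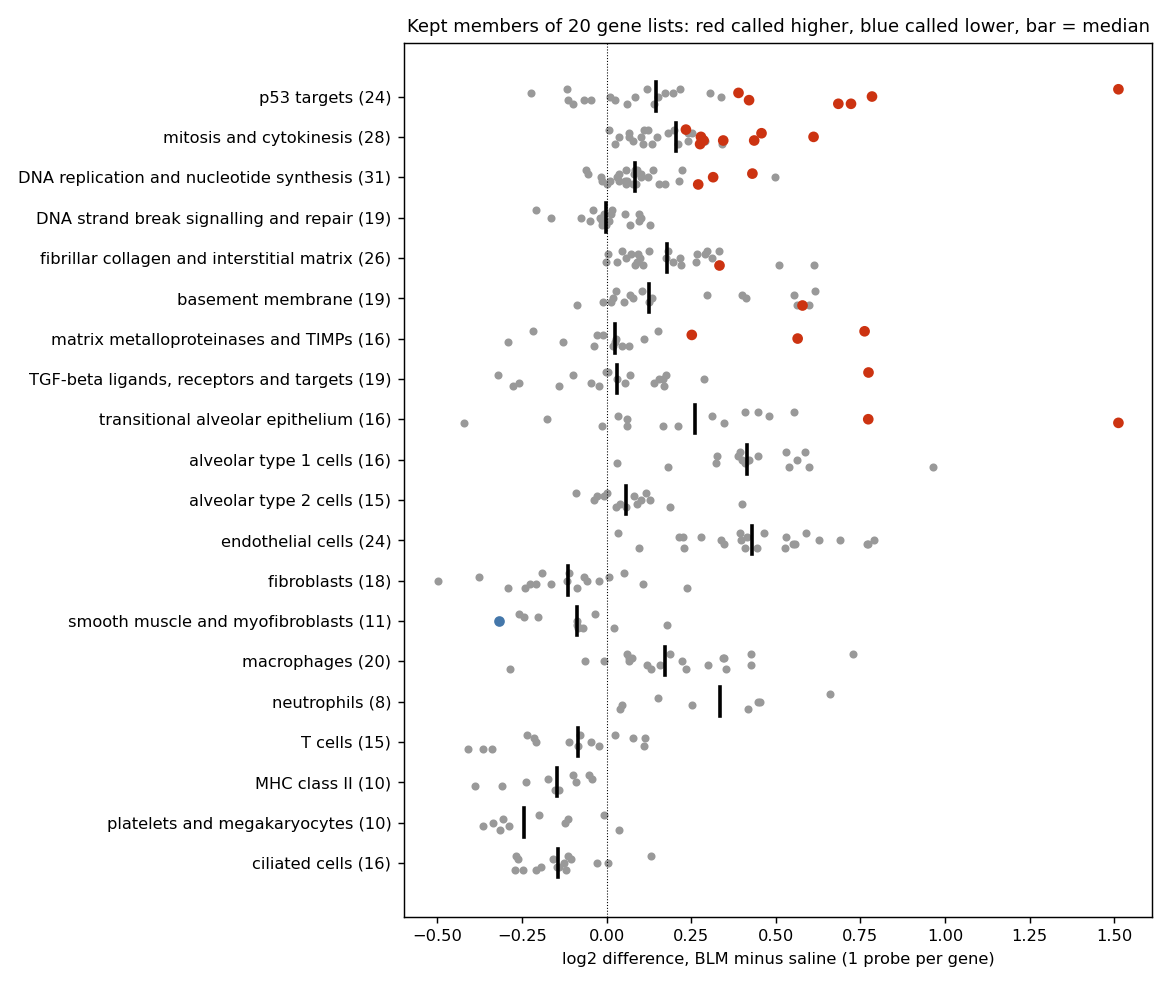
Each point is 1 tested gene of 20 lists (rows, with the number of tested members), at its log2 difference between BLM-treated mice and saline controls on the x axis. Red points were called higher, the blue point was called lower, and black bars are medians, which run from −0.24 for platelets to 0.43 for endothelial cells.

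Marker genes of alveolar type 1 cells and of endothelial cells had the highest medians of the 49 lists, without a call in either. All 16 type 1 cell genes had a positive difference, with a median of 0.42, and 1 of them lies in the stretches of displaced rows. Spock2, a proteoglycan gene, had 0.96 ± 0.22 (adjusted p = 0.10) at the probe of the list, with 8.20 to 9.79 in saline controls (median 9.27) and 9.84 to 10.41 in BLM-treated mice (median 10.14). The groups did not overlap, and its other probe was called, at 0.60 ± 0.11 (adjusted p = 0.047). The retinoic acid-induced receptor gene Gprc5a had 0.56 ± 0.11 (adjusted p = 0.067), the chloride channel family gene Clic5 0.54 ± 0.14 (adjusted p = 0.14) and Ager 0.41 ± 0.16 (adjusted p = 0.30). The type 1 score ran from −0.75 to 0.19 in saline controls and from 0.05 to 0.38 in BLM-treated mice. The lowest saline control was replicate 2, with the others at −0.29 or above, and the highest was replicate 6. Without that mouse 8 of the 16 were called higher, against 1.79% of named genes in that fit, with a median of 0.51. Type 2 cell genes had a median of 0.06, 11 of 15 were positive, and Napsa, an aspartic protease of surfactant processing, had 0.40 ± 0.20 (adjusted p = 0.47). Among genes of the transitional epithelial state, 13 of 16 were positive with a median of 0.26. Cdkn1a and Itgb6 were called, and the stress gene Nupr1 had −0.42 ± 0.10 (adjusted p = 0.11). Without saline replicate 6, 5 genes of this list were called higher and Nupr1 was called lower (−0.48, adjusted p = 0.024).

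Endothelial genes varied widely between mice. All 24 tested genes had a positive difference, with a median of 0.43 (first run 0.29, second run 0.57). Of these genes, 1 lies in the stretches of displaced rows. Robo4 had 9.60 to 10.83 in saline controls (median 9.85) and 9.89 to 11.57 in BLM-treated mice (median 10.88), a difference of 0.77 ± 0.22 (adjusted p = 0.18). The VEGF receptor gene Flt1 had 0.56 ± 0.15 (adjusted p = 0.15) and the cadherin gene Cdh5 0.69 ± 0.25 (adjusted p = 0.29). The score ran from −0.69 to 0.30 in saline controls and from −0.45 to 0.68 in BLM-treated mice, so that the groups overlapped in most of their range. Kit, a receptor of mast cells that lung endothelium also carries, had 0.65 ± 0.23 (adjusted p = 0.27).

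In the lists of macrophages, neutrophils, chemokines and cytokines, class II histocompatibility and T cells, 0 genes were called by limma with all 12 mice, while 1 to 4 genes per list had an unadjusted p under 0.05, and the medians differed in sign. Aif1, called lower above, is in none of these lists. Of 20 macrophage genes 17 were positive, with a median of 0.17, among them Lgals3, the gene of galectin-3, at 0.35 ± 0.13 (adjusted p = 0.29) and the sialoadhesin gene Siglec1 at 0.23 ± 0.10 (adjusted p = 0.35). All 8 neutrophil genes were positive, with a median of 0.33, and Lcn2, an antimicrobial protein gene that epithelium also makes, had 0.66 ± 0.30 (adjusted p = 0.41). The chemokine genes Cxcl16 and Ccl8 had 0.28 ± 0.07 and 0.30 ± 0.09 (adjusted p = 0.14 and 0.19). All 10 class II histocompatibility genes had a negative difference, with a median of −0.15, and H2-Aa had −0.39 ± 0.08 (adjusted p = 0.061). T cell genes had a median of −0.08, and the receptor subunit gene Cd3e had −0.41 ± 0.20 (adjusted p = 0.46), with saline replicate 6 highest of all mice at 9.45. Cd163l1, a scavenger receptor gene of gamma delta T cells, had −0.39 ± 0.08 (adjusted p = 0.063). Without saline replicate 6, Siglec1, Lcn2 and Cxcl16 were called higher (0.32, 0.92 and 0.34, with adjusted p = 0.029, 0.045 and 0.017). In that fit Cd163l1 and H2-Aa were called lower (adjusted p = 0.037 and 0.042), as were 1.28% of named genes, while Cd3e had −0.21. The class II and T cell medians were then −0.05 each. Platelet genes had the lowest median, −0.24, with 9 of 10 negative and Treml1 at −0.34 ± 0.13 (adjusted p = 0.33).

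No fibroblast or smooth muscle marker was called higher. Of 18 fibroblast genes 14 had a negative difference, with a median of −0.11, and Pdgfra and the homeobox gene Meox2 had −0.38 ± 0.13 and −0.50 ± 0.15 (adjusted p = 0.27 and 0.19). Of 11 smooth muscle and myofibroblast genes 9 were negative, with a median of −0.09, and Jph2 was called. The glucocorticoid response list had a median of 0.23, with Fkbp5 at 0.26 ± 0.07 (adjusted p = 0.16), and of 10 erythroid genes 8 were positive, with Alas2, of haem synthesis, at 0.70 ± 0.24 (adjusted p = 0.25, or 0.047 without saline replicate 6). Cyclin D2, Ccnd2, had 0.42 ± 0.10 (adjusted p = 0.12). Of the 49 lists, 30 had a median above 0.

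Airway and muscle content differed from mouse to mouse in both groups. The club cell score ran from −1.13 to 1.22 in saline controls and from −0.82 to 1.18 in BLM-treated mice, and the cardiac muscle score from −0.55 to 0.87 and from −0.53 to 1.05. Mice of both groups lay at both ends. The ciliated cell score was −0.71 in saline replicate 6 and 0.08 to 0.34 in the other saline controls, with −0.37 to 0.17 in BLM-treated mice. Without that mouse the median of the 16 ciliated genes moved from −0.14 to −0.35 and that of the smooth muscle list from −0.09 to −0.23. The part of airway and muscle content in the called genes was not tested. All 84 called probes were called without saline replicate 6 as well.

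**Figure D5:**
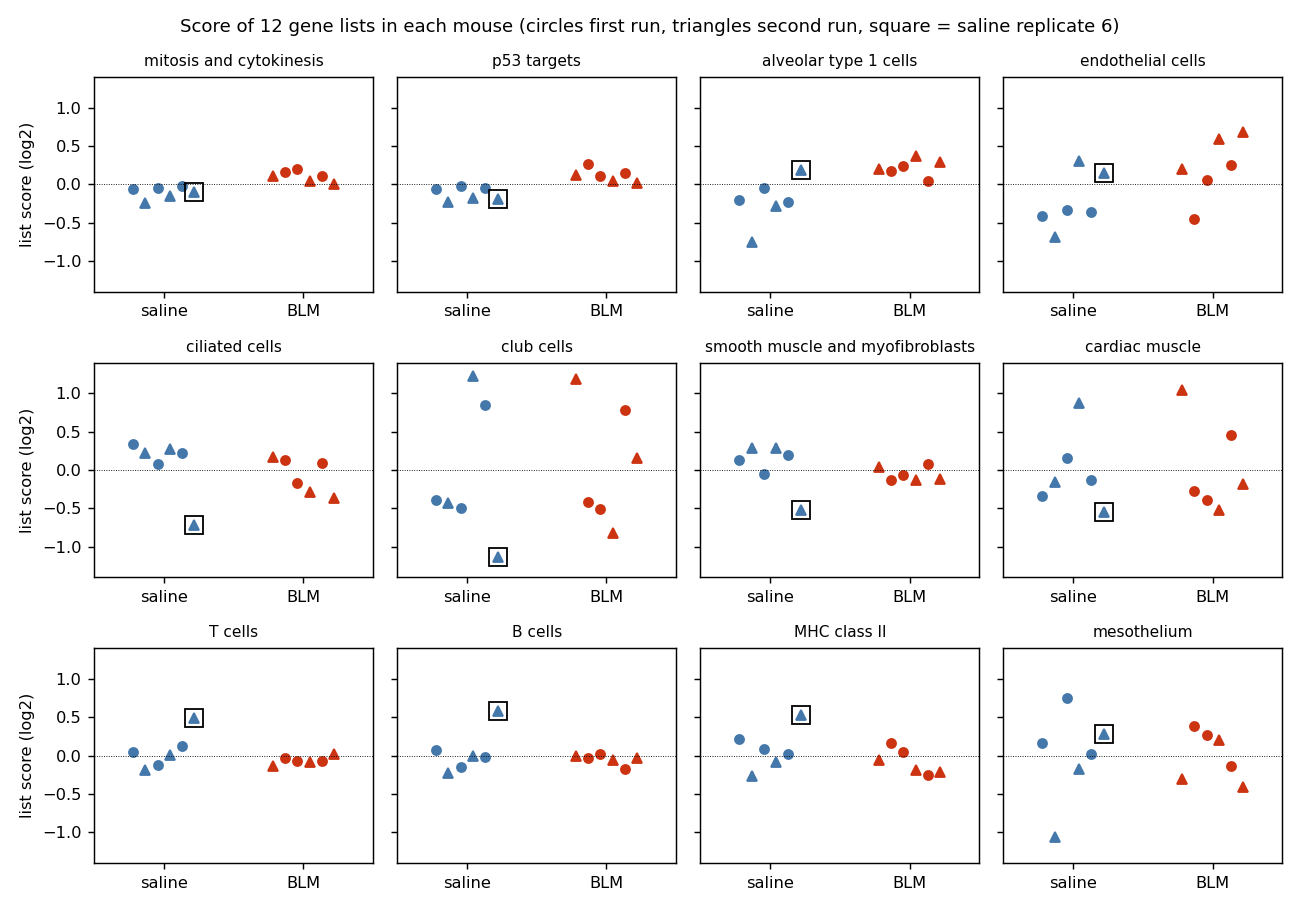
Score of 12 gene lists in each mouse, the mean log2 signal of the tested genes relative to their mean over the 12 mice (y axis), with saline controls in blue, BLM-treated mice in red, circles for the first run and triangles for the second. A square marks saline replicate 6, which is low for ciliated cells (−0.71) and high for T cells (0.49) and B cells (0.58). The mitosis score separates the groups (saline up to −0.02, BLM from 0.00). The p53 score does so across the runs only with Cdkn1a in the list, and within each run also without it.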

How the data were processed

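RNA from distal lung tissue was hybridised to Illumina mouse whole-genome chips. The authors deposited linear intensity values, quantile normalized by them, and log2 was taken with a pseudocount of 0. A table of non-normalized signals has 48 columns whose names pair with no sample, and they were not used. The run of each array was inferred from the values. All 203 omitted rows lie in 5 stretches of 602 rows in the row order of that table, where run means correlate at −0.00, against 0.995 elsewhere. These stretches hold 248 of the tested probes and 0 of the called ones.

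BLM minus saline was fitted with limma 3.58.1 in R 4.3.3 (lmFit and eBayes, run as a block, Benjamini-Hochberg over the tested probes). The methods name SAM, which takes no run term. Tables and figures were made with Python 3.11.15. Scripts were tested on simulated data. Of all probes, 34885 carry 1 gene symbol in the chip annotation, 18 several and 10378 none. Lists used the brightest probe of each gene. Named genes were the genes the study names for the arrays (of 6, 4 matched a tested probe and 2 were not analysed here), the largest and lowest called differences, and of each list the called members with up to 3 others of smallest p; a few further list members (Mdm2, Rrm2b, Ddb2, Xpc, Mcm7, Pcna, Mmp12, Mmp13, Lamb3) and the histones were chosen after their values were seen. The members and lists were chosen with earlier results of these data known. The mice are 6 biological replicates per group, and their number limits the precision. No 2 arrays held identical values.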

Additional observations from a re-analysis of the deposited data

Results flagged for a closer look

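In 11 of 302 groups of 6 mice examined, over named probes and list scores, 1 mouse lay far from the other 5 (the gap to the nearest other, relative to the range, passed Dixon's critical value), and chance alone gives about 1 in 20. Saline replicate 6 made up 5 of them: the ciliated list score (−0.71, others 0.08 to 0.34), the B cell score (0.58, others −0.23 to 0.07), the score of AhR and NRF2 targets (−0.41, others 0.02 to 0.19), Col1a1 (9.002, others 9.39 to 9.58) and the dimmer Phlda3 probe (8.16, others 8.39 to 8.52). Saline replicate 4 was high for the adipocyte score (0.61, others −0.33 to −0.03) and low for Pdgfra (11.21, others 11.78 to 12.10). Saline replicate 2 was low for a Ccng1 probe (7.33, others 7.50 to 7.56) and a Cdc20 probe (6.84, others 7.07 to 7.19). BLM replicate 5 was low for a Zfp365 probe (7.73, others 7.90 to 8.00) and BLM replicate 6 for Rrm1 (8.23, others 8.36 to 8.41).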

How the results depend on the processing

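The counts of 53 probes higher and 31 lower became 12 and 0 without the run term (1476 probes had an unadjusted p under 0.05), 116 and 65 with array weights, 44 and 15 with trend and robust moderation, 0 and 0 in the first run alone (2819 unadjusted) and 1 and 0 in the second (1116 unadjusted). With other normalizations, filters, pseudocounts, row omissions or all 24 arrays they were 45 to 70 and 21 to 38. The fit of all 24 arrays called only 54 of the 84 probes, 37 of the higher and 17 of the lower. The cause of these changes was not tested. Without saline replicates 1 to 6 in turn, 18, 34, 26, 48, 17 and 315 probes were called higher and 6, 9, 7, 32, 4 and 293 lower; without BLM replicates 1 to 6 these were 19, 78, 23, 28, 30 and 25 higher and 7, 29, 8, 15, 7 and 10 lower. The mean Cdkn1a difference was 1.08 and 1.45 (p = 0.1 each, exact permutation) within the first and second run, 1.21 to 1.31 with 1 mouse left out (p = 0.005), and 1.26 with the replicate number as a block (p = 0.031, the smallest of 64 arrangements). Shared replicate numbers did not pair the mice: correlations of their deviations ran from −0.33 to 0.29. The replicate block gave 59 probes higher and 6 lower, with 25 of the 84 called. The comparison of the difference between runs gave 0 calls in all 9 fits made, with limma (421 to 1940 probes at an unadjusted p under 0.05). Of 49 list medians, 21 changed sign in at least 1 alternative, all of them within 0.10 of 0. No called probe changed sign. Signal over background was not used here, and dim probes were limited only by the filter at 6.73. The median of the p53 list was 0.14 without Cdkn1a, an alternative chosen after seeing the data.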
